A study of Mus musculus with 12 samples.

Results

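The question here is which genes respond to loss of RasGRF2 differently in hippocampus and in olfactory bulb. For every gene the knockout effect, knockout minus wild type, was taken in each tissue, and the bulb effect was subtracted from the hippocampal effect. All 12 of the 12 arrays enter this difference of effects. A positive difference means that the knockout effect was higher in hippocampus than in bulb, whether through a larger increase in hippocampus or a larger decrease in bulb. It was computed for 19938 genes, 1 probe set for each gene symbol. Values are log2 intensities, so a difference of 1 corresponds to a doubling.

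The animals were adult mice labelled C57BL/6, 3 of wild type and 3 with the genotype GRF2 KO. The hippocampus and the olfactory bulb of each animal were taken, which gives 4 groups of 3 arrays. No treatment was given. Housing was conventional, with exposure to common pathogens. The sources used here do not give the knockout allele, the exons it removes or the breeding of the animals. The tissues of an animal are not independent, and the animal codes and animal numbers in the labels pair the tissues of 2 wild-type animals differently. In bulk tissue, fewer cells of a type and less RNA per cell cannot be told apart.

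RasGRF2 activates the small GTPases Ras and Rac by exchanging their GDP for GTP. Calcium and calmodulin engage it, so it links calcium entry, including entry through NMDA receptors, to the ERK kinase cascade. Immediate early genes such as Fos and Egr1 are classical transcriptional outputs of that cascade in neurons. Both tissues are tied to adult neurogenesis: granule neurons arise within the dentate gyrus of the hippocampus, and the olfactory bulb receives neuroblasts that become granule and periglomerular interneurons.

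The tissue labels were checked against markers. Prox1, Neurod6, Wfs1 and C1ql2, which mark hippocampal neurons, were higher in every hippocampal array than in any bulb array. Tbx21, Eomes, Doc2g, Th and Sp8, which mark bulb neurons, were higher in every bulb array. Array medians lay between 6.82 and 6.96. Knockout hippocampus 6 lay farthest from the others on the second principal component, and wild-type hippocampus 1 had the highest mean of meningeal genes in its tissue, 8.23 against 7.38 to 7.71 in the other 5 hippocampal arrays.

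Rasgrf2 itself read 9.32, 9.14 and 9.18 in wild-type and 8.64, 8.76 and 8.49 in knockout hippocampus. In bulb it read 9.52, 9.52 and 9.47 in wild-type and 9.33, 9.35 and 9.43 in knockout arrays. Knockout values lay under wild-type values in both tissues, with a wider gap in hippocampus. Rasgrf2 fell in hippocampus by 0.58 (limma adjusted p = 0.00197) and was at -0.14 in bulb (limma adjusted p = 0.532). The difference of effects was -0.45 (SE 0.109) and did not pass the test across all genes (limma adjusted p = 0.330). The single probe set may lie outside the deleted part, so it does not measure how much functional transcript was left in either tissue.

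The difference of effects passed the threshold of adjusted p 0.05 for 3 genes, 0.0150% of those tested: Pla2g4e, Armh4 and Sv2c. All 3 had a lower knockout effect in hippocampus, and each had a different pattern. Pla2g4e rose in both tissues, more in bulb. Armh4 fell in hippocampus and rose in bulb. Sv2c fell in hippocampus, while its bulb value was -0.18 and did not pass.

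**Figure D1:**
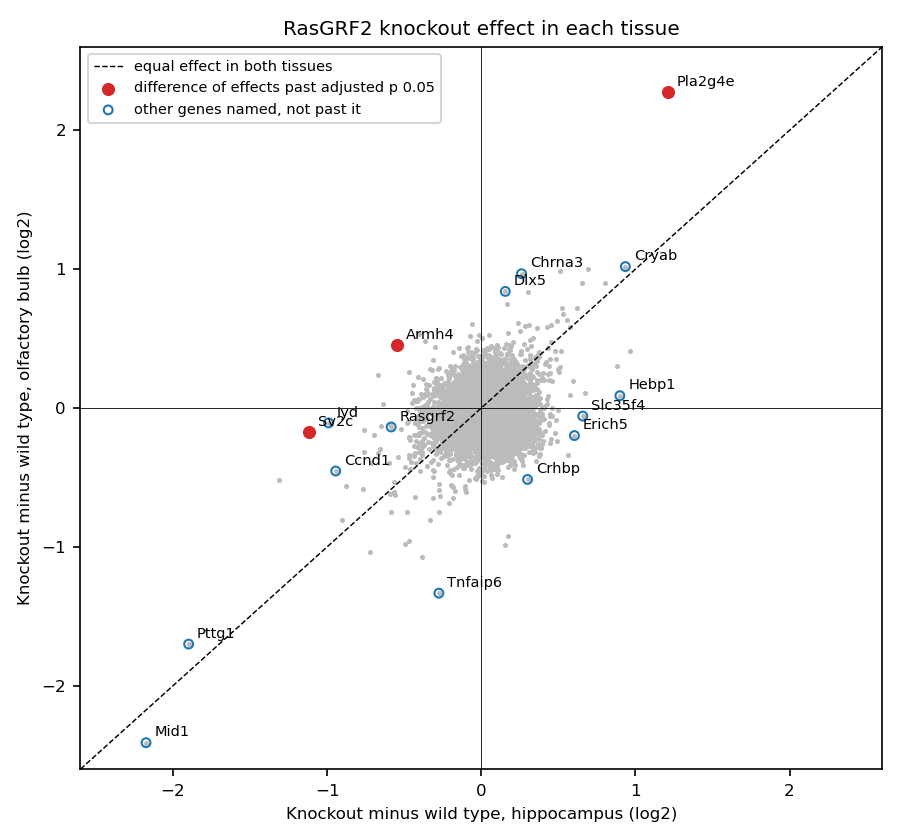
Knockout minus wild type in hippocampus (horizontal) against the same in olfactory bulb (vertical), in log2 units, for 19938 genes in grey. The dashed line marks equal effects. The 3 red genes passed the test of the difference, and Mid1, Pttg1 and Cryab, far from the origin, lie close to the line.

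Pla2g4e encodes a cytosolic phospholipase A2 of group IV that transfers acyl chains to make precursors of N-acylethanolamine lipids. It read 6.95, 6.85 and 6.87 in wild-type hippocampus and 8.12, 8.13 and 8.05 in knockout hippocampus. In bulb it read 6.48, 6.81 and 6.91 in wild-type arrays and 8.98, 9.05 and 9.0 in knockout arrays. The wild-type levels of the tissues overlapped, and every knockout array lay above all wild-type arrays, with the bulb arrays highest. The increase was 2.31-fold in hippocampus (1.21 on the log2 scale, limma adjusted p = 1.02e-05) and 4.84-fold in bulb (2.27, limma adjusted p = 2.24e-09). The difference of effects was -1.06 (SE 0.129, limma adjusted p = 0.00875). The next measured genes on one side, its relatives Pla2g4d and Pla2g4f, had differences of 0.03 and 0.21, with unadjusted limma p of 0.753 and 0.0767. Among the 5 measured genes on either side, only Tyro3 (0.47) and Tmem87a (-0.31) had an unadjusted limma p under 0.05. Neither passed the adjusted threshold.

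Armh4, a gene named for an armadillo-like helical domain, changed in opposite directions. It read 9.11, 8.79 and 9.0 in wild-type and 8.38, 8.47 and 8.42 in knockout hippocampus. The bulb values were 8.60, 8.59 and 8.46 in wild-type and 9.08, 8.87 and 9.06 in knockout arrays. No knockout value overlapped a wild-type value in either tissue, and the order of the genotypes was inverted between them. The hippocampal effect was -0.54 (limma adjusted p = 0.0112), the bulb effect 0.45 (limma adjusted p = 0.0390), and their difference -0.997 (SE 0.123, limma adjusted p = 0.00875).

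Slc35f4, a member of the SLC35 family of solute carriers, is the next measured gene to Armh4 in the gene table, with 0 measured genes between them, and it showed the reverse order of effects. It read 6.93, 7.02 and 7.02 in wild-type and 7.70, 7.78 and 7.46 in knockout hippocampus. Its bulb values were 8.72, 8.79 and 8.78 in wild-type and 8.86, 8.59 and 8.67 in knockout arrays. Slc35f4 rose in hippocampus by 0.66 (limma adjusted p = 0.00230), its bulb arrays overlapped, and the difference of 0.72 (SE 0.126) did not pass (limma adjusted p = 0.136).

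Sv2c encodes a glycoprotein of synaptic vesicles that also serves as an entry receptor for botulinum toxin. It read 8.25, 8.31 and 8.32 in wild-type and 7.28, 7.31 and 6.95 in knockout hippocampus. In bulb, where the gene was higher, it read 9.58, 9.80 and 9.84 in wild-type and 9.59, 9.51 and 9.60 in knockout arrays. The hippocampal groups were apart by 1.11 on average, a 2.17-fold decrease (limma adjusted p = 2.94e-05), and the bulb groups overlapped. The difference of effects was -0.94 (SE 0.134, limma adjusted p = 0.0318). Its family members Sv2a and Sv2b had differences of -0.13 and 0.02.

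Sv2c lies on the chromosome of Rasgrf2 with 32 measured genes between them, and Crhbp, described further on, is separated from Sv2c by 4 measured genes. Of the 3 measured genes beside Sv2c on the side of Crhbp, F2rl2, Iqgap2 and F2r, Iqgap2 had a difference of 0.44 and F2r of 0.31, both opposite in sign to Sv2c and neither past the adjusted threshold. Of the 5 measured genes on either side of Rasgrf2, none had an unadjusted limma p under 0.05 for the difference of effects.

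With the animal code as a fixed block, which sets the tissue differences of 3 knockout animals against those of 3 wild-type animals, 0 genes passed. The adjusted p was then 0.0908 for Pla2g4e, 0.113 for Armh4 and 0.209 for Sv2c in limma, and 1778 genes had an unadjusted p under 0.05. The animal number of the title as the block also left 0 genes, with adjusted p of 0.0684 for Pla2g4e and Armh4 and 0.0838 for Sv2c. The estimates are the same with and without the block. Leaving out knockout hippocampus 4 or knockout bulb 4 left 0 genes as well, at a lowest adjusted p of 0.0554 and 0.0504. Sv2c also missed the threshold without any 1 wild-type hippocampal array, wild-type bulb 1 or 2, or knockout bulb 5 or 6. Pla2g4e and Armh4 each passed under 18 of 23 alternatives and Sv2c under 10 of 23, with the sign kept throughout.

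**Figure D2:**
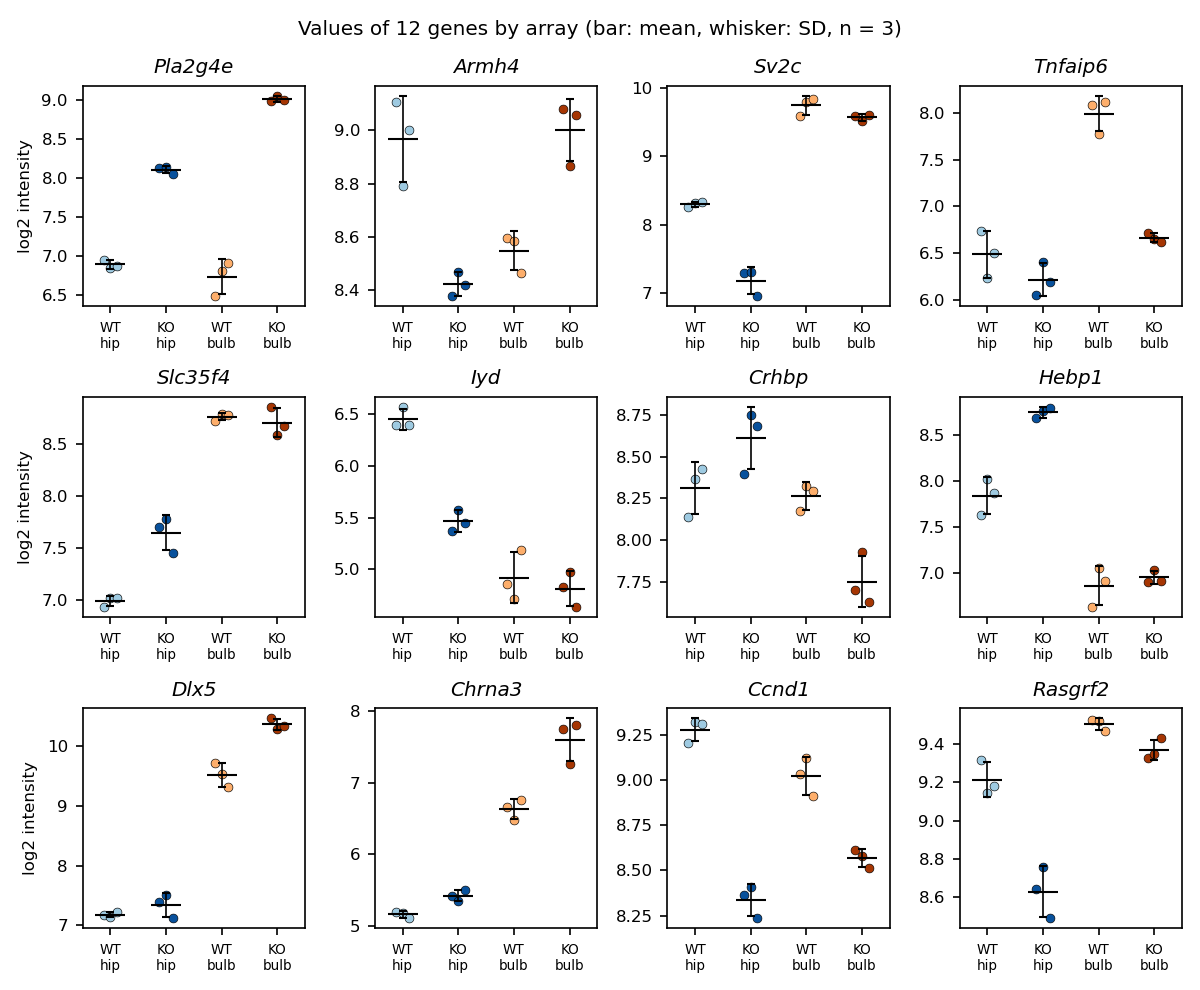
Log2 intensity of 12 genes in each of the 12 arrays, by group (WT wild type, KO knockout, hip hippocampus, bulb olfactory bulb; points are arrays, bars the group mean and whiskers the SD, n = 3). The genotype gap of Pla2g4e is wider in bulb, that of Sv2c, Iyd and Hebp1 wider in hippocampus, and the order for Armh4 is inverted between the tissues.

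The genes of next smallest p did not pass, and their values are given as measured. Among the 15 of smallest p in the positive direction, 12 could be named, and 10 of these had estimates of opposite sign in the tissues. Over all genes the signs were opposite for 10662 of 19938. In 6 of the 12 every knockout array lay above every wild-type array in hippocampus and below in bulb. Over all genes that complete inversion held for 153 (0.767%), and the reverse inversion, seen in Armh4, for 25 (0.125%). The share of all genes with groups apart in a single tissue was not counted. Statements here that the groups of a gene were apart in a tissue lack that reference. The 12 genes were picked by the difference itself, so high shares of opposite signs and inversions follow from the choice.

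Tnfaip6, which encodes a secreted hyaluronan-binding protein, had the largest of these 12 differences, at 1.06 (SE 0.175, limma adjusted p = 0.124). In hippocampus it read 6.73, 6.23 and 6.5 in wild-type and 6.05, 6.40 and 6.19 in knockout arrays, which overlap. Bulb arrays gave 8.09, 7.78 and 8.12 in wild-type and 6.72, 6.65 and 6.62 in knockout arrays, a fall of 1.33 (limma adjusted p = 7.99e-05). The knockout bulb values lay within the range of the hippocampal arrays, 6.05 to 6.73.

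Crhbp, which encodes the binding protein that sequesters corticotropin-releasing hormone, read 8.14, 8.37 and 8.43 in wild-type and 8.40, 8.75 and 8.69 in knockout hippocampus. In bulb it read 8.17, 8.33 and 8.30 in wild-type and 7.70, 7.93 and 7.63 in knockout arrays. Hippocampal arrays overlapped and bulb arrays did not. The difference was 0.81 (SE 0.151, limma adjusted p = 0.136), and neither tissue's effect passed (0.30 and -0.51, limma adjusted p = 0.468 and 0.0551).

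Erich5, Hebp1 and Slc35f4 were the 3 of these genes that changed in hippocampus. Hebp1, a haem-binding protein gene, read 7.63, 8.02 and 7.87 in wild-type and 8.68, 8.75 and 8.79 in knockout hippocampus, and overlapped in bulb. It rose by 0.90 in hippocampus, with a bulb value of 0.09 and a difference of 0.81 (limma adjusted p = 0.138). Erich5 rose by 0.60 in hippocampus, with -0.20 in bulb and a difference of 0.80 (limma adjusted p = 0.136).

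Tfap2d, a transcription factor of the AP-2 family, Cntn4, an axonal adhesion molecule, and Fgf11, an intracellular fibroblast growth factor homologue, fell in bulb with Tnfaip6. Their bulb effects were -0.48, -0.52 and -0.42, their hippocampal values 0.10, 0.00 and 0.10, and their differences 0.58, 0.53 and 0.52. Ptpn18, a tyrosine phosphatase gene, Rnf186, a ubiquitin ligase gene, Rslcan18 and Plet1 passed in neither tissue. Their hippocampal values of 0.31 to 0.37 and bulb values of -0.32 to -0.16 gave differences of 0.49 to 0.67. These 4 genes had mean levels of 5.20 to 5.84, below every array median.

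In the negative direction 13 of the 15 could be named, Pla2g4e, Armh4, Sv2c and Rasgrf2 included. Iyd, an iodotyrosine deiodinase gene listed here with CA pyramidal markers, read 6.39, 6.57 and 6.40 in wild-type and 5.37, 5.58 and 5.44 in knockout hippocampus. In bulb it was low in all arrays, at 4.85, 4.71 and 5.19 in wild-type and 4.83, 4.97 and 4.63 in knockout. It fell by 0.99 in hippocampus (limma adjusted p = 0.000797), and the difference of -0.88 (SE 0.163) did not pass (limma adjusted p = 0.136). The bulb values lay well under the array medians.

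Ccnd1, the cyclin D1 of G1 phase and a target of ERK signalling, fell in both tissues. It read 9.21, 9.32 and 9.31 against 8.36, 8.41 and 8.23 in hippocampus, and 9.03, 9.12 and 8.91 against 8.61, 8.58 and 8.51 in bulb, wild type first. The groups were apart in both tissues, with effects of -0.94 in hippocampus and -0.45 in bulb and a difference of -0.49 (SE 0.105, limma adjusted p = 0.228).

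Dlx5 and Chrna3 rose in bulb. Dlx5, a homeobox factor of bulb interneurons, read 9.72, 9.53 and 9.32 in wild-type and 10.47, 10.28 and 10.33 in knockout bulb. Its hippocampal arrays overlapped, and the effects of 0.84 in bulb and 0.16 in hippocampus gave a difference of -0.68 (limma adjusted p = 0.241). Chrna3, the alpha 3 subunit of nicotinic receptors, read 6.67, 6.48 and 6.75 in wild-type and 7.75, 7.25 and 7.80 in knockout bulb. The same gene read 5.20, 5.19 and 5.11 in wild-type and 5.42, 5.35 and 5.50 in knockout hippocampus, so knockout was above wild type in both tissues, by 0.97 in bulb and 0.26 in hippocampus, a difference of -0.71 (limma adjusted p = 0.309).

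Samsn1, an adaptor protein gene of lymphoid cells, also rose in bulb, by 0.43, with -0.09 in hippocampus. Cybrd1, a ferric reductase gene, Ankrd29 and Car12, a carbonic anhydrase gene, passed in neither tissue and had differences of -0.48, -0.48 and -0.49. Rps25, a ribosomal protein gene, had 6 probe sets with differences between -0.72 and -0.58. Ribosomal protein genes have many near-identical copies, so which copies these probe sets report is uncertain.

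The largest positive values belonged to genes of the olfactory mucosa and depended on single wild-type bulb arrays. Cyp2g1, an olfactory cytochrome P450, had the highest difference of all genes, 1.14, with an unadjusted limma p of 0.112. Wild-type bulb 1 read 8.29, against 5.37 to 5.68 in the other 5 bulb arrays, and without it the difference was 0.25. Stoml3, a gene of olfactory sensory neurons, had 1.09, with 10.07, 9.24 and 7.87 in wild-type bulb against 7.94 to 8.30 in knockout bulb. Its difference was 0.59 without wild-type bulb 1 and 1.69 without wild-type bulb 3. Among large negative values, Glrx3, a glutaredoxin of iron-sulfur handling, had -0.94, and knockout hippocampus 6 read 6.75 where the other knockout hippocampal arrays read 7.5 and 7.58. Ifi203, an interferon-inducible gene, had -0.91 and the same array was lowest, at 6.39 against 7.01 and 7.08. None of these 4 passed.

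Across all 19938 genes the difference of effects was centred slightly above 0, with a median of 0.04, and 60.8% of genes lay above 0. An unadjusted limma p under 0.05 was reached by 2124 genes (10.7%), of which 1685 (8.45% of those tested) were higher in hippocampus and 439 (2.20%) lower. This asymmetry followed the level of the genes. When genes were ranked by mean level and split into 10 groups, the median difference was 0.16 in the third group, between 5.49 and 6.13, and between -0.03 and -0.01 in the 4 brightest groups. In the third group 362 genes were higher and 20 lower at that p, and in the brightest group 42 and 53.

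The shift of dim genes was carried by some arrays more than others. In the third group knockout hippocampus 6 stood 0.11 above the mean of its tissue and wild-type hippocampus 3 stood 0.10 below it, while in bulb knockout 6 stood 0.08 below and wild-type 3 stood 0.07 above. Cyclic loess between arrays, which removes such level-dependent shifts, brought all group medians to between -0.02 and 0.01. It left 808 genes higher and 893 lower at unadjusted p under 0.05, and the same 3 genes past the adjusted threshold. Centring the arrays gave 1098 and 778. Genes with predicted or clone names, 1227 in number, had a median difference of 0.12, and 1244 chemoreceptor genes one of 0.01. After cyclic loess these medians were 0.03 and -0.07.

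**Figure D3:**
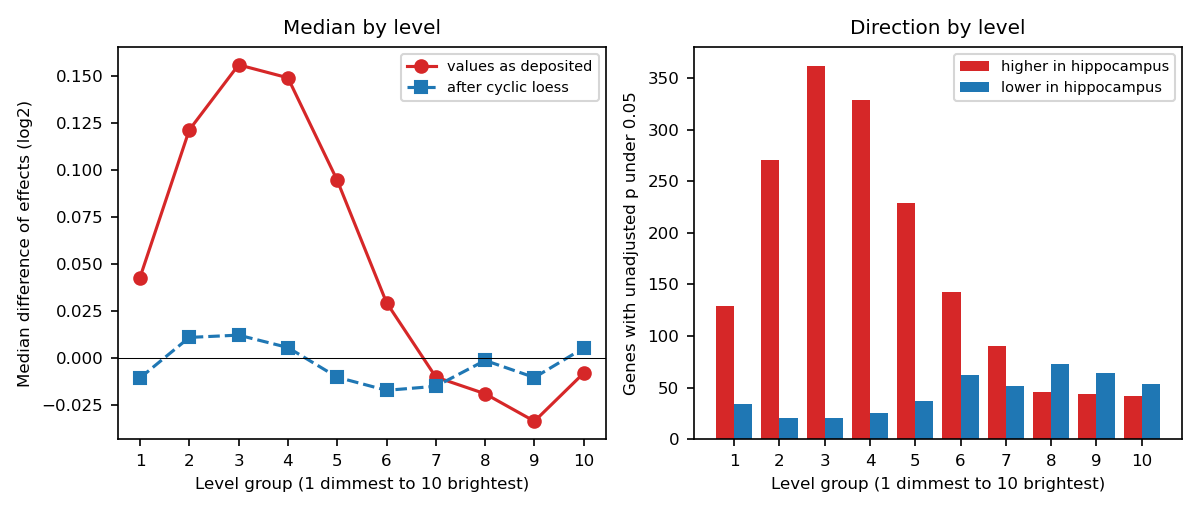
Left, median difference of effects in 10 groups of genes ranked by mean level, for values as deposited and after cyclic loess. Right, number of genes in each group with unadjusted limma p under 0.05, by direction. Groups 2 to 5 have medians of 0.09 to 0.16 as deposited, and all groups lie between -0.02 and 0.01 after cyclic loess.

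In hippocampus 51 genes (0.256%) and in bulb 82 (0.411%) passed for knockout against wild type, and 24 passed in both. Of the 27 that passed in hippocampus alone, 22 had the same sign in bulb, and of the 58 that passed in bulb alone, 50 had the same sign in hippocampus. Over all genes the signs were the same for 9276 of 19938. The difference of effects itself passed for 1 of the 27, Sv2c, for 0 of the 58 and for 2 of the 24. At an unadjusted limma p under 0.05 these counts were 15, 38 and 7, against 10.7% of all genes. These genes were picked by an effect that enters the difference, so a high share follows from the choice.

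Among the genes changed most in both tissues, Pla2g4e passed the test of the difference, and Mid1, Pttg1, Cryab and Mcmdc2 did not. Mid1, a microtubule-associated ubiquitin ligase, fell in both tissues (-2.17 in hippocampus and -2.41 in bulb), a difference of 0.24 (95% interval -0.04 to 0.51). Pttg1, the securin of sister chromatid separation, fell in both (-1.90 and -1.70), a difference of -0.20 (-0.58 to 0.19). Cryab, a small heat shock protein gene, rose by 0.94 and 1.02, a difference of -0.08 (-0.40 to 0.23). Mcmdc2, a meiotic relative of the MCM helicase genes, fell in both (-0.90 and -0.81), a difference of -0.09 (-0.34 to 0.15). These intervals hold 0 and leave room for differences of up to 0.58 in size.

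Others of the genes changed in both tissues differed more. Greb1l, a relative of the oestrogen-regulated gene Greb1, rose by 0.51 in hippocampus and 0.98 in bulb. It read 7.58, 7.38 and 7.56 against 8.01, 8.11 and 7.93 in hippocampus and 6.37, 6.16 and 6.20 against 7.35, 7.07 and 7.26 in bulb, and its difference of -0.47 did not pass (limma adjusted p = 0.353). A second Greb1l probe set gave -0.19. Slc38a6, an amino acid transporter gene, fell in both (-0.72 and -1.04), a difference of 0.32. Esco1, a cohesin acetyltransferase gene, rose by 0.69 and 1.00, a difference of -0.31, and its second probe set gave -0.86. Layn, a hyaluronan receptor gene, and Hunk, a kinase gene, passed in hippocampus alone and were named after their values were seen. They rose in hippocampus by 0.88 and 0.67, had 0.30 and 0.11 in bulb, and differences of 0.58 and 0.57.

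Gene classes were described by 40 lists with 743 measured genes. The median difference was above 0 in 29 lists and below 0 in 11. The all-gene median of 0.04 and the share of 60.8% above 0 are the values to set beside each list, though this reference shifts with level. Genes in the level groups of the ependymal and dividing progenitor lists had a median of 0.15, and those for choroid plexus and blood 0.12. It was 0.09 for neuropeptides and -0.01 for the myelin and immediate early lists. The all-gene shares of 8.45% higher and 2.20% lower stand beside the counts at unadjusted limma p under 0.05. Centring each array left 17 lists above 0 and cyclic loess 23. When single arrays were left out, the median stayed above 0 in 19 lists and below 0 in 5, and changed sign at least once in 16. The members that passed the adjusted test were Pla2g4e in the phospholipase list and Sv2c in the vesicle list. Lists are described by counts and medians, with no test of a list. For the effects within each tissue, the all-gene median was 0.03 in hippocampus and -0.02 in bulb. Across the level groups it ran from -0.00 to 0.09 in hippocampus and from -0.07 to 0.03 in bulb. The share of all genes above 0 was not counted within each tissue, so counts of signs within a tissue lack that reference.

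**Figure D4:**
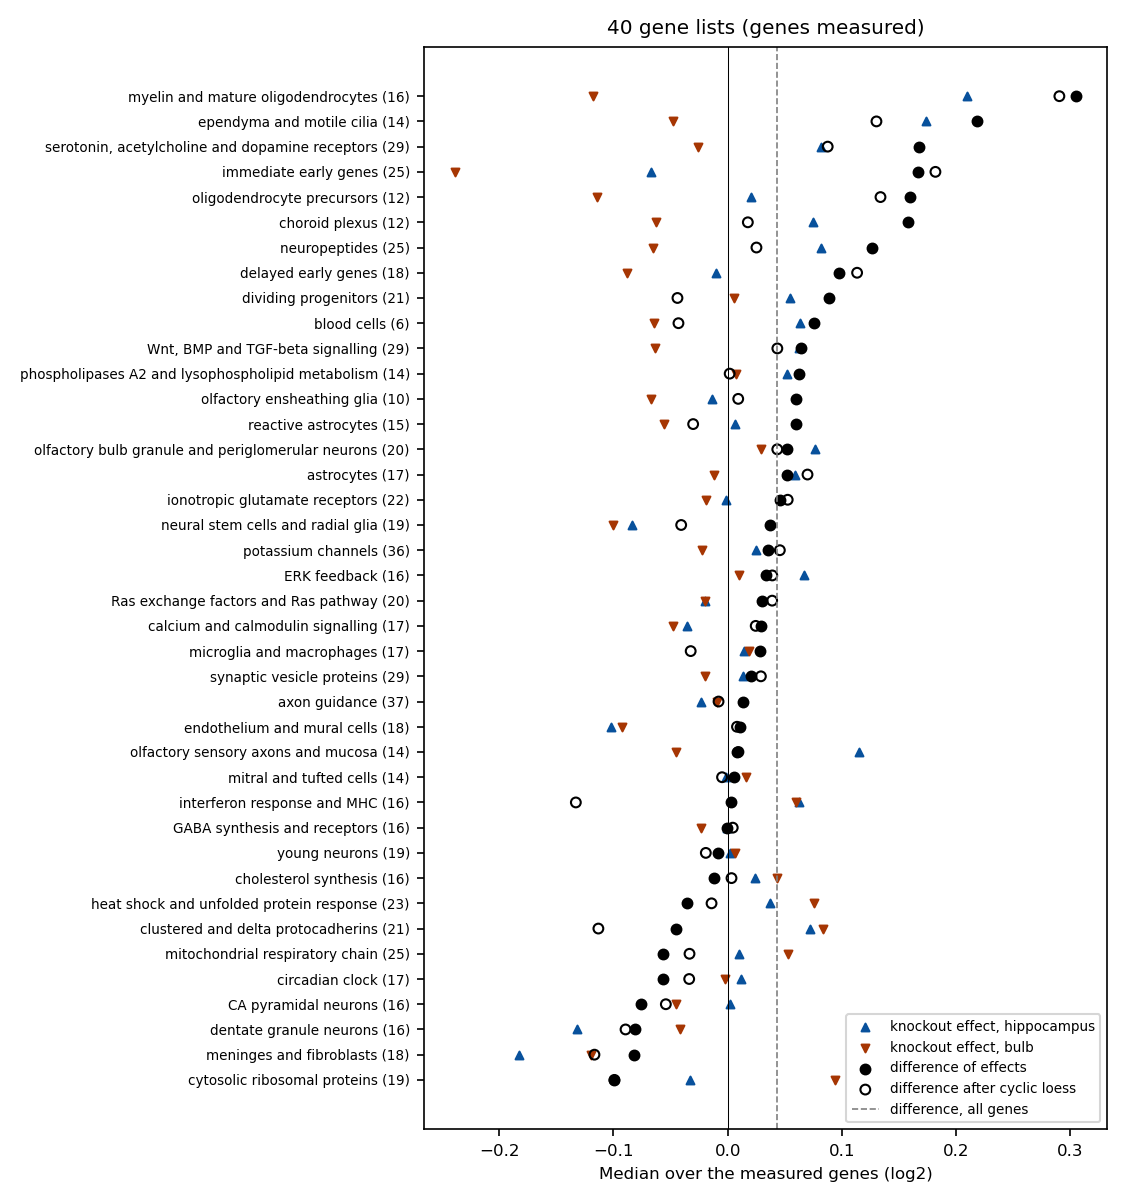
Median over the measured genes of 40 lists, in log2 units: knockout effect in hippocampus (blue), in bulb (orange), their difference (black) and the difference after cyclic loess (open circles). The dashed line is the median difference of all genes. Among the differences as deposited, the myelin list lies farthest right, at 0.30, and the ribosomal protein list farthest left, at -0.10.

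Immediate early genes, which are transcribed within minutes of neuronal activity, had lower values in knockout bulb. Of 25 measured, 21 had a difference above 0, with a median of 0.17 as deposited, 0.18 after cyclic loess and 0.09 with array weights. It was 0.11 without wild-type hippocampus 1 and 0.26 without wild-type hippocampus 3, the extremes when each array was left out. Their median effect was -0.24 in bulb, where 24 of 25 lay below 0, and -0.07 in hippocampus, where 19 did. At unadjusted limma p under 0.05, 4 were higher, 0 lower, and 0 passed the adjusted test. Their mean level was 8.68, 8.71 and 8.96 in wild-type against 8.45, 8.60 and 8.36 in knockout bulb, and 8.05, 8.23 and 8.33 against 7.96, 8.25 and 8.07 in hippocampus. Knockout bulb arrays thus lay below all wild-type bulb arrays, and the hippocampal groups overlapped.

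Egr4 and Nr4a2, transcription factors of the EGR and NR4A families, had the smallest p of the list. Egr4 read 8.06, 8.20 and 8.37 in wild-type and 7.71, 7.75 and 7.68 in knockout bulb. It read 7.63, 7.71 and 7.87 in wild-type and 7.57, 7.89 and 7.69 in knockout hippocampus. Egr4 fell in bulb by 0.49 (limma adjusted p = 0.0440) with -0.02 in hippocampus, and the difference was 0.47 (SE 0.137, limma adjusted p = 0.374).

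Nr4a2 read 9.89, 9.93 and 10.02 in wild-type and 9.48, 9.56 and 9.38 in knockout bulb. In hippocampus it read 9.17, 9.29 and 9.48 in wild-type and 9.14, 9.32 and 9.47 in knockout arrays. The bulb groups were apart and the hippocampal groups overlapped throughout. Nr4a2 fell in bulb by 0.47 (limma adjusted p = 0.0499), with -0.00 in hippocampus and a difference of 0.47 (SE 0.136, limma adjusted p = 0.374).

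Fosb, an AP-1 subunit, read 9.30, 9.20 and 9.65 in wild-type and 8.15, 8.68 and 8.10 in knockout bulb. In hippocampus it read 7.37, 7.57 and 7.91 in wild-type and 6.78, 7.69 and 7.22 in knockout arrays. It fell in bulb by 1.07, with -0.39 in hippocampus, where arrays overlapped, and a difference of 0.69 (SE 0.295, limma adjusted p = 0.445). Npas4, a factor induced by calcium entry, fell in bulb by 0.98, with -0.50 in hippocampus and a difference of 0.48 (SE 0.280). Egr3, named after its values were seen, fell in bulb by 0.50, with -0.04 in hippocampus and a difference of 0.46.

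The proximal promoters of the 4 genes with the smallest p in this list and an entry in the RefSeq table (GRCm38.p6) are shown. Each run covers the 250 bases before the annotated start, 5′ to 3′ on the gene's strand. Capitals mark the core of the cAMP response element, TGACG, or its reverse complement CGTCA. Calcium- and cAMP-responsive factors are known to act through this element.
Egr4, chr6:85513590-85513839, minus strand: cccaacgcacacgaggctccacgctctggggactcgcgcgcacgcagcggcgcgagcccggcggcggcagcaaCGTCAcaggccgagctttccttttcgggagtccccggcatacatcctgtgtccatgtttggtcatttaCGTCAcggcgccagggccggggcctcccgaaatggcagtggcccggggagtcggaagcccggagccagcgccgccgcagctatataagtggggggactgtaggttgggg
Nr4a2, chr2:57124004-57124253, minus strand: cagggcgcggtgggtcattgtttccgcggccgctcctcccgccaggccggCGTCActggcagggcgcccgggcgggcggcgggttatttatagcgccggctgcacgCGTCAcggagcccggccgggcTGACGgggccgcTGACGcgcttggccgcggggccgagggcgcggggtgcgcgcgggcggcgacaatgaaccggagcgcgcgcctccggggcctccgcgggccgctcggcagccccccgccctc
Fosb, chr7:19310046-19310295, minus strand: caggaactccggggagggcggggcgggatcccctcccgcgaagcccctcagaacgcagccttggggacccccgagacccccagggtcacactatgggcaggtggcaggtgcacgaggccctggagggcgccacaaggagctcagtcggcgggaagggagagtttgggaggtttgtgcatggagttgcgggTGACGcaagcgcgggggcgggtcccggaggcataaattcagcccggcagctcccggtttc
Npas4, chr19:4989972-4990221, minus strand: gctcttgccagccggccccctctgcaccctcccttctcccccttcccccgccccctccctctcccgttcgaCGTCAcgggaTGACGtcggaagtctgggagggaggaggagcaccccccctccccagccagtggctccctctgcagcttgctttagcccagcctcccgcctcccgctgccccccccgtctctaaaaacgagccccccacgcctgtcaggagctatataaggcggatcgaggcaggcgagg
Nr4a2 holds 4 such cores, Egr4 and Npas4 2 each, and Fosb 1. Of 20 early genes with an entry, 15 (75.0%) hold at least 1 core in any listed promoter, against 19.8% of 27025 genes in the table. The full element TGACGTCA, which contains the core on both strands, was in 3 of the 20 against 1.77% of genes, and the CArG box, the serum response element core, in 1 against 1.62%. A match is a string of letters, and its use in these tissues was not measured. The shares are not matched for base composition, and a link to the bulb values was not tested.

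Delayed early genes followed with a smaller median of 0.10, and 12 of 18 lay above 0. Nptx2, a synaptic pentraxin, had 0.40, from 0.36 in hippocampus and -0.04 in bulb, and Pim1, a kinase gene, 0.28. At unadjusted limma p under 0.05, 3 were higher and 1 lower.

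The list medians of ERK feedback, Ras pathway and calcium and calmodulin genes stayed near the all-gene median. Across the 16 ERK feedback genes the median was 0.03, with 2 genes higher and 2 lower at unadjusted limma p under 0.05. The leading members had opposite signs: Dusp4, a phosphatase that inactivates ERK, fell in bulb by 0.49 with -0.03 in hippocampus, a difference of 0.47, while Ccnd1 had -0.49. The 20 Ras exchange factors and Ras pathway genes measured, of 26 listed, had a median of 0.03 and 0 genes with unadjusted limma p under 0.05. Rasgrf2 itself, described above with a difference of -0.45, was not among these 20. Rasgrp4, a Ras exchange factor of blood cells, had 0.18 and the kinase gene Braf -0.16. The 17 calcium and calmodulin genes also had a median of 0.03 and 0 genes under that p. Camkk2, a calmodulin-dependent kinase kinase, had 0.23, and Hpca, a neuronal calcium sensor of hippocampal pyramidal cells, 0.34. Centring the arrays turned these 3 medians below 0, to -0.01.

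Receptors for serotonin, acetylcholine and dopamine had a median of 0.17 (0.09 after cyclic loess), 20 of 29 above 0, with 5 higher and 1 lower at unadjusted limma p under 0.05. The median was 0.08 without knockout hippocampus 6, 0.09 to 0.11 without wild-type hippocampus 1 or 3, knockout hippocampus 5 or knockout bulb 5, and 0.05 with array weights. Chrm3, the muscarinic M3 receptor, read 9.30, 9.47 and 9.40 in wild-type and 9.59, 9.74 and 9.75 in knockout hippocampus. Its bulb arrays gave 8.92, 8.89 and 8.89 in wild-type and 8.76, 8.63 and 8.72 in knockout arrays. Knockout lay above wild type in hippocampus and below in bulb in all arrays, and the difference was 0.50 (SE 0.101, limma adjusted p = 0.171). Chrna3, described above, had the opposite sign, at -0.71. Chrna4, a nicotinic subunit, and Htr5b, a serotonin receptor, both named after their values were seen, had 0.64 and 0.38.

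Neuropeptide genes had a median of 0.13, with 18 of 25 above 0, 4 higher and 2 lower at unadjusted limma p under 0.05. Cyclic loess lowered this median to 0.03. Adcyap1, which encodes PACAP, had -0.32 and Rln3, the relaxin 3 gene, 0.45. The 29 synaptic vesicle genes had a median of 0.02 (-0.02 with centred arrays). Beside Sv2c the member of smallest p was Syt2, a fast calcium sensor of release, at 0.48. Syt2 read 6.84, 6.96 and 6.89 against 7.23, 7.19 and 7.33 in hippocampus, with all knockout arrays higher, and its bulb arrays overlapped.

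Ionotropic glutamate receptor genes had a median of 0.05 and 14 of 22 above 0. Grin3a, an NMDA receptor subunit, and Cnih3, an auxiliary subunit of AMPA receptors, each had 0.34, with knockout above wild type in hippocampus and below in bulb in all arrays. GABA genes had a median of -0.00, which turned to 0.00 after cyclic loess and 0.01 after quantile normalization. Gabra5 and Gabrb1, subunits of GABA-A receptors, had -0.25 and -0.21. Among 36 potassium channel genes the median was 0.04 (-0.01 with centred arrays), with 4 higher and 1 lower at unadjusted limma p under 0.05. Kcnh5, a voltage-gated channel gene, rose in hippocampus by 0.58, with 0.09 in bulb and a difference of 0.49. Kcna5 had 0.46.

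Dentate granule neuron markers had a median of -0.08, with 2 of 16 above 0 and 1 lower at unadjusted limma p under 0.05. Their median effect was -0.13 in hippocampus, where 15 of 16 lay below 0, and -0.04 in bulb. Their mean level was 9.28, 9.09 and 9.14 in wild-type and 9.15, 9.11 and 8.89 in knockout hippocampus, which overlap. The median of the differences was -0.00 without knockout hippocampus 6, -0.03 without wild-type hippocampus 1, -0.15 without knockout hippocampus 4, -0.03 with array weights and -0.12 with centred arrays. Trpc6, a cation channel gene, had -0.39 and Stxbp6, a SNARE-binding protein gene, -0.26. CA pyramidal neuron markers had a median of -0.08 with 6 of 16 above 0, and their leading members had opposite signs: Iyd at -0.88 and Mpped1 at 0.53. Their median was -0.01 without knockout hippocampus 6, and -0.05 to -0.03 without knockout hippocampus 4, wild-type hippocampus 1 or 3, or wild-type bulb 1 or 3. It was -0.03 after quantile normalization and -0.12 with centred arrays.

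Markers of bulb neurons lay near the all-gene median. Granule and periglomerular interneuron markers had a median of 0.05 with 12 of 20 above 0. Dlx5 was the member of smallest p, while Dlx1, Dlx2 and Dlx6, its family members, had 0.04, 0.18 and -0.16. Synpr, a synaptic vesicle protein of granule cells, had -0.22. Mitral and tufted cell markers had a median of 0.01, which became -0.00 after cyclic loess and -0.04 with centred arrays. Slc17a6, a vesicular glutamate transporter, had 0.59, from 0.39 in hippocampus and -0.20 in bulb. The homeobox gene Lhx5 had 0.45, from 0.38 in hippocampus and -0.07 in bulb. Its mean level of 5.33 was below every array median.

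The stages of adult neurogenesis showed no common sign that held across scalings. Neural stem cell and radial glia genes had a median of 0.04 (-0.01 with centred arrays, -0.00 after quantile normalization and -0.04 after cyclic loess). Nes, the nestin gene, had 0.47 and read 5.79, 5.58 and 5.27 against 5.67, 5.75 and 5.72 in hippocampus and 6.03, 5.88 and 5.95 against 5.52, 5.91 and 5.50 in bulb, so its arrays overlapped in both tissues. Hopx, a quiescent stem cell and astrocyte gene, had 0.35. Dividing progenitor genes had a median of 0.09 (-0.04 after cyclic loess), with Rrm2 and Tyms, both of nucleotide synthesis, at 0.32 and -0.37. Young neuron genes had a median of -0.01 (0.00 after quantile normalization). Dcx, the microtubule protein of neuroblasts, had -0.19 and Cd24a -0.40.

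Myelin and mature oligodendrocyte genes had the highest median of the 40 lists, 0.30, and all 16 measured members lay above 0. At unadjusted limma p under 0.05, 9 were higher and 0 lower, and 0 passed the adjusted test. The median effect was 0.21 in hippocampus, where 16 of 16 lay above 0, and -0.12 in bulb, where 13 lay below. The median difference was 0.26 to 0.31 under the scalings tried, 0.17 with array weights and 0.26 to 0.41 when each array was left out. Mean levels in hippocampus were 8.67, 8.47 and 8.61 in wild-type and 8.58, 8.85 and 8.93 in knockout arrays. In bulb they were 8.60, 8.65 and 8.58 against 8.51, 8.55 and 8.43. Knockout hippocampus 5 and 6 lay above all wild-type hippocampal arrays and 4 did not, while all 3 knockout bulb arrays lay below all wild-type ones.

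Ermn, a cytoskeletal protein of oligodendrocytes, read 8.14, 7.86 and 8.30 in wild-type and 8.10, 8.45 and 8.47 in knockout hippocampus. In bulb it read 7.77, 7.78 and 7.78 in wild-type and 7.48, 7.56 and 7.36 in knockout arrays. Only the bulb groups were apart, and the difference was 0.55 (SE 0.158, limma adjusted p = 0.370). Gjc3, a gap junction gene of myelinating glia, had the largest difference of the list, 0.68 (SE 0.206), with overlap in both tissues. Mal, Mog, Trf and Mobp, myelin and oligodendrocyte genes named after their values were seen, had 0.55, 0.47, 0.46 and 0.37. Mbp, the myelin basic protein gene, had 0.08.

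**Figure D5:**
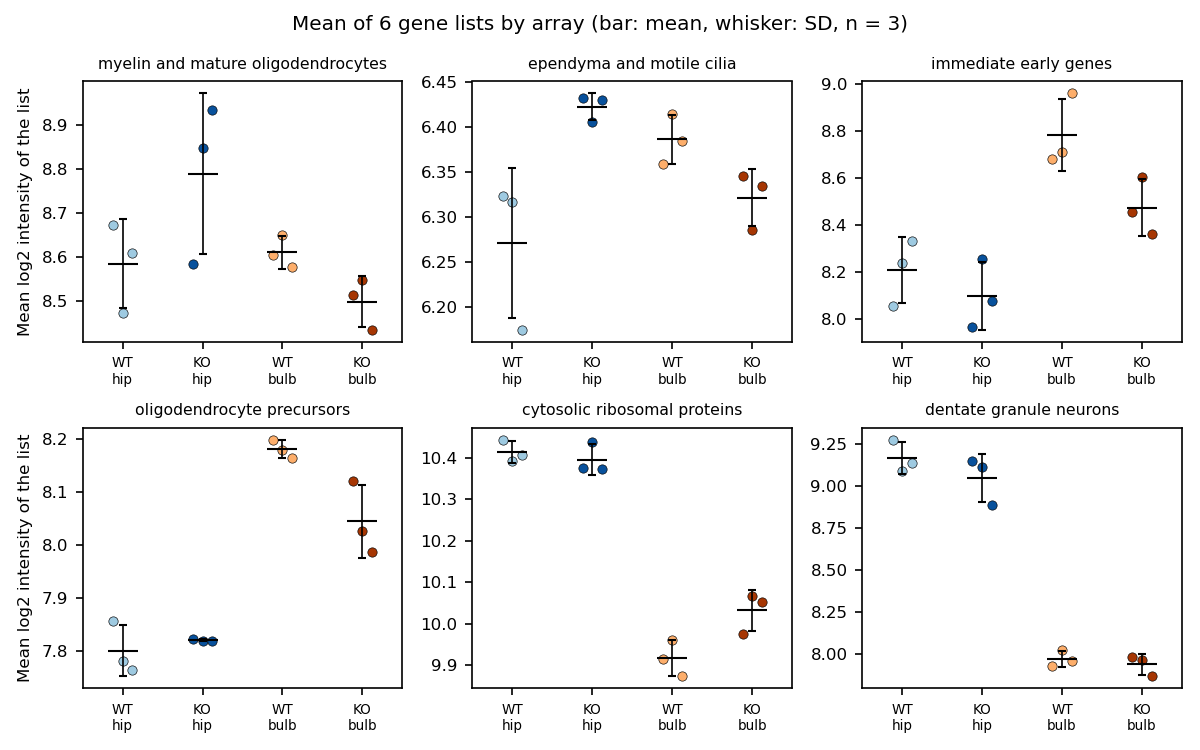
Mean log2 intensity of 6 gene lists in each array, by group (points are arrays, bars the group mean and whiskers the SD, n = 3). Knockout bulb arrays lie below wild-type bulb arrays for the myelin, immediate early, oligodendrocyte precursor and ependymal lists, and above them for ribosomal proteins. This is not particular to these lists. Among lists not shown, knockout bulb arrays were all lower for Ras pathway, calcium, neural stem cell, delayed early and endothelial genes. They were all higher for protocadherin, respiratory chain, bulb interneuron, heat shock and phospholipase genes.

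Oligodendrocyte precursor genes had a median of 0.16 with 11 of 12 above 0 and 0 at unadjusted limma p under 0.05. Their mean level was 8.20, 8.18 and 8.16 in wild-type against 8.12, 8.03 and 7.99 in knockout bulb, and 7.76 to 7.86 in all hippocampal arrays. Pdgfra, the growth factor receptor of precursors, had 0.23 and Matn4 0.25. Astrocyte genes had a median of 0.05 with 13 of 17 above 0, Agt, the angiotensinogen gene, at -0.33 and S100b at 0.18. Reactive astrocyte genes had a median of 0.06 (-0.03 after cyclic loess), and Serpina3n, a protease inhibitor gene, rose in hippocampus by 0.97 with 0.41 in bulb, a difference of 0.56. Serpina3n read 10.40, 10.17 and 10.20 against 11.22, 11.32 and 11.14 in hippocampus and 9.35, 9.30 and 8.96 against 9.49, 9.68 and 9.66 in bulb, with knockout above wild type in both. Steap4 had 0.31.

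Microglia and macrophage genes had a median of 0.03 (-0.03 after cyclic loess), with 0 of 17 at unadjusted limma p under 0.05, Cd163 at 0.28 and Aif1 at 0.22. Olfactory ensheathing glia genes had a median of 0.06 (0.01 after cyclic loess and -0.01 without wild-type hippocampus 2). Frzb, a Wnt antagonist, had -0.34 and the glial factor Sox10 0.30.

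Ependymal and cilia genes had a median of 0.22 (0.13 after cyclic loess), with 12 of 14 above 0, 6 higher and 0 lower at unadjusted limma p under 0.05. Their median effect was 0.17 in hippocampus and -0.05 in bulb. Mean levels were 6.32, 6.32 and 6.17 in wild-type and 6.43, 6.41 and 6.43 in knockout hippocampus, below the array medians, and wild-type hippocampus 3 was lowest. Tekt1, a protein of ciliary microtubules, read 6.10, 6.04 and 6.13 in wild-type and 5.93, 5.78 and 5.86 in knockout bulb, overlapped in hippocampus, and had a difference of 0.42. Mia had 0.43. The level-dependent shift described above lies in the same range of levels.

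Choroid plexus genes had a median of 0.16, which fell to 0.02 after cyclic loess. Calml4, a calmodulin-like gene, had 0.50 and Clic6, a chloride channel gene, 0.51. Meningeal and fibroblast genes had a median of -0.08 with 5 of 18 above 0. That value was 0.19 without wild-type hippocampus 1, 0.07 without wild-type bulb 3 and -0.36 without wild-type hippocampus 2. Lum, the lumican gene, and Col3a1, a fibrillar collagen gene, had -0.52 and 0.32. Endothelial and mural genes had a median of 0.01 (-0.03 with centred arrays), with the pericyte genes Kcnj8 at 0.41 and Pdgfrb at 0.19.

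Olfactory sensory and mucosa genes had a median of 0.01 (-0.03 with centred arrays), and beside Cyp2g1 and Stoml3 the members of smallest p were Kirrel2, an axon-sorting adhesion molecule, at 0.37 and Cnga4, a channel subunit of odour transduction, at 0.23. The 6 blood genes had a median of 0.08 (-0.04 after cyclic loess), with Cd79a at 0.58 and S100a8 at 0.24. Interferon and MHC genes had a median of 0.00 (-0.13 after cyclic loess), with Psmb9 at 0.22 and Usp18 at -0.24.

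Ribosomal protein genes had the lowest median as deposited, -0.10, with 2 of 19 above 0. After cyclic loess it was also -0.10, and the interferon, meningeal and protocadherin lists were lower. The median was -0.17 without knockout hippocampus 5, -0.06 without wild-type bulb 3, -0.16 with array weights and -0.15 with the mean of a gene's probe sets. At unadjusted limma p under 0.05, 0 were higher and 3 lower. The median effect was 0.09 in bulb, where 17 of 19 lay above 0, and -0.03 in hippocampus. Mean levels were 9.92, 9.96 and 9.87 in wild-type and 9.98, 10.07 and 10.05 in knockout bulb, with no overlap, and 10.37 to 10.44 in all hippocampal arrays. Rps2 rose in bulb by 0.60, with 0.31 in hippocampus and a difference of -0.28. Its other probe sets gave -0.44 and -0.01, and Rps20 had -0.24. Respiratory chain genes had a median of -0.06 with 7 of 25 above 0. It was -0.01 without wild-type hippocampus 1, -0.03 without wild-type bulb 1 or 3 or knockout hippocampus 6, and -0.09 without wild-type hippocampus 2 or knockout hippocampus 5. It was -0.03 after quantile normalization or cyclic loess and -0.10 with centred arrays. Ndufa1 and Ndufa4, subunits of the chain, had -0.36 and -0.31.

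Heat shock genes had a median of -0.04. It was 0.01 without knockout bulb 5, -0.01 after quantile normalization and -0.11 with array weights. Xbp1, a factor of the unfolded protein response, had 0.24 and the mitochondrial chaperonin gene Hspe1 -0.23. Clock genes had a median of -0.06 and 0 of 17 at unadjusted limma p under 0.05, with Bhlhe41 at -0.28 and Rorb at 0.26. Cholesterol synthesis genes had a median of -0.01 (0.00 after cyclic loess), with Sc5d at -0.19 and Mvd at 0.14. The 13 phospholipase and lysophospholipid genes other than Pla2g4e had differences of -0.16 to 0.30, and the median of all 14 was 0.06.

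Wnt, BMP and TGF-beta genes had a median of 0.06 with 22 of 29 above 0 and 0 at unadjusted limma p under 0.05, Fzd1, a Wnt receptor, at 0.21 and Wnt4 at 0.28. Axon guidance genes had a median of 0.01 (-0.01 after cyclic loess), with Sema3c, a secreted semaphorin, at -0.33 and its receptor family member Plxnd1 at 0.27. Protocadherin genes had a median of -0.05, with 7 of 21 above 0 and 14 below. The median was -0.11 after cyclic loess, -0.09 with centred arrays, -0.10 with array weights and 0.02 without wild-type hippocampus 3. It was -0.07 without knockout hippocampus 5 and -0.03 to -0.02 without knockout hippocampus 6, knockout bulb 4 or wild-type bulb 1. Pcdhb5 and Pcdh10, the members of smallest p, had 0.29 and 0.25, against the sign of the median, and Pcdhb9, named after its value was seen, had -0.36.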

How the data were processed

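Total RNA from 12 samples was biotinylated for 1-colour arrays, per the labels' protocols. The authors deposited log2 values for 35556 probe sets, made with RMA and the oligo package per the submitters' processing notes. RMA corrects background, normalizes between arrays and summarises probes, which compresses differences of dim genes. The sources used here give no versions or genome build, nor whether RMA was run over both tissues at once.

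The platform annotation listed 23410 probe sets, 21789 with 1 symbol and 1621 with several. Of the former, 21698 matched a RefSeq gene table (GRCm38.p6), used for names and gene order. For 999 genes with several probe sets the brightest was kept, which left 19938 genes and no filter on low values. Array number limits the precision.

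The fit used limma 3.58.1 in R 4.3.3: 4 group means, lmFit and eBayes, Benjamini-Hochberg adjustment over all genes, two-sided, threshold 0.05. Effects are differences of mean log2 values. The members and lists were chosen with earlier results of these data known. Named were Rasgrf2, genes past the threshold, the 15 of smallest p and 5 largest differences in each direction, the 10 largest changes in each tissue (in part), and 2 members of each list, without clone, predicted or chemoreceptor names. Genes named as neighbours or relatives of these, and those marked so in the text, fall outside that rule. Samples of an animal share source_name codes. Deviations from group means correlated between the tissues of an animal with r of -0.255 to 0.116 by code and -0.208 to 0.252 by title number. The block on the animal rests on the labels. Alternatives were blocks, leaving out each array, scalings, moderation, array weights, probe set choices, a level filter and, chosen after the dependence on level was seen, cyclic loess. Replicate arrays differed with an SD of 0.212 to 0.297, so no array was a copy. The fit was tested on simulated data. Promoters of chromosome 18 were left out. Figures used matplotlib 3.10.9 in Python 3.11.15.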

Additional observations from a re-analysis of the deposited data

Results flagged for a closer look

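The knockout effect differed between the tissues by a test of the difference itself for 3 genes. That fit treated the tissues of an animal as independent. With the animal as a fixed block, by code or by title number, 0 genes passed. No explanation was weighed. Pla2g4e had a difference of -1.06, higher in knockout in all arrays of both tissues and more so in bulb. For Armh4 it was -0.997, with knockout below wild type in all hippocampal arrays and above in all bulb arrays. For Sv2c it was -0.94, with knockout below wild type in all hippocampal arrays and overlapping groups in bulb. Groups held 3 arrays, so single arrays were not tested for standing apart.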

How the results depend on the processing

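The 3 genes past the threshold became 0 with either fixed replicate block, 3 with the animal code as a random block, 12 with array weights, 0 of 35556 with every probe set tested, and 0 to 4 when each array was left out. The fits with every probe set gave a lowest adjusted p of 0.0719 and 3466 at unadjusted p under 0.05, and 1888 reached that p with the title number as block. The 51 genes of the hippocampal comparison became 336 with array weights, 125 with every probe set and 30 to 56 without single arrays. The 82 of the bulb comparison became 136 with trend and robust moderation and 35 to 105 without single arrays. Lists with a median above 0 numbered 17 in place of 29 with centred arrays. Cryab, at -0.08, ranged from -0.22 to 0.018 without single arrays, the latter without wild-type hippocampus 1, and no other single gene recomputed under the alternatives changed sign. The share of genes higher in hippocampus among those with unadjusted p under 0.05 was 79.3% as deposited, 58.5% with centred arrays, 58.8% above the median level and 47.5% after cyclic loess. The causes were not tested. A gene that missed the threshold is not shown to respond alike in both tissues. The dimmest genes, near background, have compressed differences.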
